A study of Mus musculus with 16 samples.

Results

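The mitochondrial genome of the mouse carries 37 genes, and all of them had a row in the deposited count table. They were chosen as the rows whose GENCODE M21 symbol begins with mt-, which gave 37 of 48440 rows, all on chromosome M of mm10: 13 protein-coding genes, 22 tRNA genes and 2 rRNA genes. By annotated strand they fell into 28 heavy-strand genes (plus strand in the annotation: 12 protein-coding, 14 tRNA and 2 rRNA) and 9 light-strand genes (minus strand: 1 protein-coding gene, mt-Nd6, and 8 tRNA genes). The data came from 16 RNA-Seq libraries of bone marrow–derived macrophages (BMDMs) in 4 groups of 4 libraries: M1 macrophages with VLX-1005, M1 macrophages with vehicle, M0 macrophages with VLX-1005 and M0 macrophages with vehicle. According to the methods, marrow of 8-week-old NOD.hALOX12 mice, a non-obese diabetic strain in which human ALOX12 replaces mouse Alox15, was grown in M-CSF (10 ng/mL) over 7 days. Cells of every group were pretreated for 1 hour with either 10 μM VLX-1005, an inhibitor of human 12-lipoxygenase, or 0.1% DMSO as vehicle, and the M1 groups were then stimulated over 18 hours by LPS at 10 ng/mL together with IFN-γ at 25 ng/mL, while the M0 groups remained unpolarized. All groups thus carried the human gene replacement, and no source says that the 4 libraries of a group came from separate mice, so the p values measure the spread between libraries, which may be technical.

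Both strands of mammalian mitochondrial DNA are transcribed into long precursors that cover many genes at once. tRNAs lie between most of the protein-coding and rRNA genes, and their excision releases the other RNAs. Most genes are read from the heavy-strand precursor, and the RNA of either strand runs antisense across the genes of the other. The protein-coding genes encode subunits of respiratory chain complexes I (the Nd genes), III (Cytb) and IV (the Co genes) and of ATP synthase (the Atp genes). In macrophages, polarization with LPS and IFN-γ is known to move energy metabolism from mitochondrial respiration toward glycolysis.

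The places where a heavy-strand and a light-strand gene meet are shown by their sequence, because the largest counts lay at several of them. In the annotation mt-Nd5 (plus strand) and mt-Nd6 (minus strand) face each other and share 14 bases at their 3′ ends (chrM:13552-13565), mt-Co1 and mt-Ts1 share 3 bases (chrM:6870-6872), and mt-Ti and mt-Tq share 3 bases (chrM:3772-3774). The last 60 bases of both protein-coding genes and the whole of the 6 light-strand tRNA genes that had enough counts to be tested follow, 5′ to 3′ on the strand of each gene, from the GENCODE M21 transcripts (mm10). Capitals mark the bases that also belong to a gene on the opposite strand.
mt-Nd6, chrM:13552-13611, minus strand: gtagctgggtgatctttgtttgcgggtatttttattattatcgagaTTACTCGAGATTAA
mt-Nd5, chrM:13506-13565, plus strand: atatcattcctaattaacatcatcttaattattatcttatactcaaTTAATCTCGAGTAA
mt-Ts1, tRNA for serine, chrM:6870-6938, minus strand: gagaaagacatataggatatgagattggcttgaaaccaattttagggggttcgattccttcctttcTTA
mt-Tq, tRNA for glutamine, chrM:3772-3842, minus strand: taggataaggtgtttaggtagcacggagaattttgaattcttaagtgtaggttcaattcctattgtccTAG
mt-Tp, tRNA for proline, chrM:15356-15422, minus strand: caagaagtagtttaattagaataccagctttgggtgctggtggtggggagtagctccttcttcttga
mt-Te, tRNA for glutamate, chrM:14071-14139, minus strand: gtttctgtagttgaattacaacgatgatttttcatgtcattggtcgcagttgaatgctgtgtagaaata
mt-Ty, tRNA for tyrosine, chrM:5260-5326, minus strand: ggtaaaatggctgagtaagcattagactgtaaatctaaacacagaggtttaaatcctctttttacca
mt-Ta, tRNA for alanine, chrM:5018-5086, minus strand: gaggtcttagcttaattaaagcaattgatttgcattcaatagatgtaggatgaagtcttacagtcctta
The capitals of mt-Nd6 and mt-Nd5 are reverse complements of each other. GC content was 35.0% over these bases of mt-Nd6 and 21.7% over those of mt-Nd5, and among the tRNA genes it lay between 33.3% in mt-Ta and 44.8% in mt-Tp.

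The libraries held 939584 to 1158095 counts each. Macrophage markers were present in all groups (9 of 9 rows with counts in the M0 groups, and 8 of 9 in the M1 groups, with Mrc1 at 0), and their summed level was 246.9 to 281.4 CPM in the M1 libraries treated with VLX-1005 and 233.3 to 290.8 CPM in those treated with vehicle, against 948.1 to 1030 CPM and 1004 to 1167 CPM in the M0 libraries of the same treatments. Rows of the macrophage list did not all move alike between M1 and M0 libraries, so its sum does not measure macrophage number. In these marker sums CPM is the count per 1000000 counts of the library total, without further scaling. For the single rows in the paragraphs below, CPM is the count of a row per 1000000 counts of the library after TMM scaling, which sets the libraries to a common level. The list of 7 M1-like markers summed to 660.9 to 923.6 CPM in the M1 libraries, against 0.892 to 11.5 CPM in the M0 libraries. Markers of other cell types were low: T cell, B cell, fibroblast and neutrophil lists each reached at most 3.57 CPM. The erythroid marker Alas2, a heme synthesis enzyme of red cell precursors, was at 1.78 to 6.85 CPM in M1 libraries with VLX-1005 and 0.920 to 5.16 CPM in M1 libraries with vehicle, against 5.18 to 16.95 CPM and 6.60 to 12.99 CPM in the M0 libraries of the same treatments, while Hba-a1 and Hbb-bt were at 0. The dendritic cell list moved with polarization, at 141 to 213.2 CPM in M1 libraries, against 0 to 5.56 CPM in M0 libraries, with counts in 2 of its 4 rows and with Flt3 and Zbtb46 at 0 in every group. A low marker row sets no limit on the cells of its type, since the strand setting with which the reads were counted is not given. What part such cells had in the mitochondrial values was not tested.

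Mitochondrial counts lay almost wholly on light-strand genes. Over the 16 libraries the 9 light-strand rows held 170251 counts and the 28 heavy-strand rows 11813, although light-strand genes make up only 6.92% of the annotated bases (1068 bases, against 14373 bases of heavy-strand genes). The tRNA genes differed most between strands, with 20629 counts in the 8 light-strand tRNA rows and 22 counts in the 14 heavy-strand tRNA rows. The libraries were strand-specific, but no source used here gives the strand setting with which the reads were counted. Every value below therefore belongs to a row and not to a strand of RNA. Whether a light-strand row holds RNA of its own strand or heavy-strand RNA that runs across it was not tested. Among nuclear rows, 96.4% to 97.3% of the counts in each library fell in the 17.5% of rows that share exonic bases with a gene of the other strand. The 17.5% is taken over all nuclear rows, with or without counts, and 30671 of the 48440 rows in the table had no count. What these nuclear values mean for the mitochondrial rows was not tested.

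Among light-strand rows, mt-Nd6, a complex I subunit and the sole protein encoded on that strand, led with 149622 counts, which was 82.2% of all mitochondrial counts and 288.3 counts per base of its length. mt-Tp had 11849 counts (176.9 counts per base), and it lies at the end of the gene set beside the non-coding control region. mt-Ts1 had 5609 counts (81.3 counts per base). These 3 rows stood well above mt-Ty (990 counts, 14.8 per base), mt-Te (870 counts, 12.6 per base), mt-Tq (802 counts, 11.3 per base) and mt-Ta (456 counts, 6.61 per base). mt-Te lies directly before the 5′ start of mt-Nd6 on the same strand, with 0 bases between them, and yet their counts per base were far apart. In the cluster of 4 neighbouring light-strand tRNA genes, the outer genes mt-Ta and mt-Ty had the counts given above, whereas the inner genes mt-Tn (asparagine) and mt-Tc (cysteine) had 22 and 31 counts.

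Every heavy-strand row was lower per base than mt-Ta, although 4 of them were above the inner tRNA genes mt-Tc (0.47 per base) and mt-Tn (0.31 per base). mt-Nd5, the complex I gene that faces mt-Nd6, had 7738 counts (4.24 counts per base) and held 65.5% of the heavy-strand counts. It was followed by mt-Cytb with 1418 counts (1.24 per base), mt-Co1 with 1126 counts (0.729 per base) and mt-Nd4 with 762 counts (0.553 per base). mt-Nd2 and mt-Nd1 had 278 and 243 counts, and the rRNA rows mt-Rnr2 and mt-Rnr1, of the large and small ribosomal subunits, had 168 and 44. Of the 28 heavy-strand rows, 13 had no count in any library: 11 tRNA rows, mt-Nd3 and mt-Nd4l. A row at 0 sets no limit on the RNA of that gene, since the strand setting is not given.

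Near-identical nuclear copies touched some of these rows. At 98% identity or more, 5 heavy-strand protein-coding genes (mt-Co2, mt-Atp6, mt-Co3, mt-Nd3 and mt-Nd4l) were covered over at least 90% of their length by an annotated transcript on chromosome 1, and these 5 rows had 0 to 6 counts. The other 7 heavy-strand protein-coding rows had 1 to 7738 counts; among them mt-Nd4 was covered over 63.6%, mt-Co1 over 31.3% and mt-Atp8 over 21.1% of its length. The rows of the nuclear copies themselves held 3 to 115 counts, with the highest number in Gm28438, the copy of mt-Nd3. Reads that match a gene and its copy equally well can be dropped or split by the counting, so the level of these rows is uncertain. For the light-strand genes no such copy was found among the annotated transcripts, and copies elsewhere in the nuclear genome were not searched for.

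The share of all counts that fell on mitochondrial rows was lower in M1 than in M0 macrophages. In M1 macrophages with VLX-1005 the mitochondrial share was 0.650%, 0.549%, 0.688% and 0.813% of the library, against 1.495%, 1.335%, 1.633% and 1.497% in M0 macrophages with VLX-1005. In M1 macrophages with vehicle it was 0.655%, 0.545%, 0.637% and 0.775%, against 1.47%, 1.23%, 1.51% and 1.46% in M0 macrophages with vehicle. Every M1 library lay below every M0 library. The difference of the means was -0.815 percentage points with VLX-1005 and -0.762 percentage points with vehicle (exact permutation test, two-sided, p = 0.0286 each, adjusted p = 0.0714 over 15 tests). A p of 0.0286 is the smallest that 4 libraries against 4 allow, so neither difference passed 0.05 after adjustment. Most of the difference lay in the mt-Nd6 row: without it the differences were -0.0641 percentage points with VLX-1005 and -0.0531 with vehicle. With library sizes after TMM scaling and all mitochondrial rows they were -0.459 and -0.432 percentage points (exact permutation p = 0.0286 in each of these 4 cases). In bulk RNA fewer cells of a type and less RNA per cell cannot be told apart.

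The light-strand share of the mitochondrial counts was high in all groups, and lower in M1 macrophages. It was 93.1%, 92.9%, 90.3% and 91.5% in M1 macrophages with VLX-1005, against 95.1%, 93.2%, 94.7% and 94.5% in M0 macrophages with VLX-1005. With vehicle it was 91.6%, 91.4%, 91.3% and 89.2% in M1 macrophages, against 95.8%, 94.0%, 94.1% and 94.3% in M0 macrophages. All M1 libraries were below all M0 libraries of the same treatment, with a difference of the means of -2.43 percentage points with VLX-1005 and of -3.65 percentage points with vehicle, each with an exact permutation p of 0.0286 and an adjusted p of 0.0714. With VLX-1005 the ranges nearly met, at 93.07% for the highest M1 library and 93.22% for the lowest M0 library. Without mt-Nd6 no such difference was seen with both treatments: over the other rows the light-strand share differed by -1.01 percentage points with vehicle (exact permutation p = 0.771) and by 3.297 percentage points, in the other direction, with VLX-1005 (p = 0.286). On counts per kb of length the differences were -0.166 percentage points with VLX-1005 (exact permutation p = 0.314) and -0.263 percentage points with vehicle (exact permutation p = 0.114).

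Within the light strand, mt-Nd6 made up less of the counts in M1 macrophages. Its share of the light-strand counts was 82.2%, 81.4%, 83.9% and 83.9% in M1 macrophages with VLX-1005, against 89.3%, 89.8%, 90.5% and 90.1% in M0 macrophages with VLX-1005. With vehicle its share was 82.1%, 82.0%, 83.7% and 84.4% in M1 macrophages, against 89.5%, 89.4%, 90.1% and 90.3% in M0 macrophages. The 2 conditions were separated by a gap larger than the range within any group, with differences of -7.10 percentage points with VLX-1005 and -6.77 percentage points with vehicle (exact permutation p = 0.0286, adjusted p = 0.0714, for each). This share does not depend on how libraries are scaled. The half-widths of the 95% Wilson intervals of single libraries were at most 0.0238, 0.756 and 1.10 percentage points for the mitochondrial, light-strand and mt-Nd6 shares, and they cover counting error only.

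Of the 37 rows, 14 passed the filter on low counts and were tested, 7 light-strand and 7 heavy-strand. The other 23 rows (2 light-strand and 21 heavy-strand) had at most 44 counts over all libraries. Among the tested rows, mt-Nd1, mt-Nd2 and mt-Ta had at least 10 counts in every M0 library but not in every M1 library. The filter counts libraries of any group. mt-Nd1 reached 10 counts in 1 M1 library with vehicle and 0 with VLX-1005, and so passed through the M0 groups. mt-Nd2 reached 10 counts in 1 M1 library with vehicle and 2 with VLX-1005, and so passed mainly through the M0 groups. mt-Ta reached 10 counts in 2 M1 libraries with vehicle and 3 with VLX-1005. With the filter set on the M1 groups alone, 12 mitochondrial rows passed. With VLX-1005, 11 of the 14 rows were called between M1 and M0 macrophages (edgeR quasi-likelihood test, Benjamini-Hochberg adjusted p under 0.05), 2 higher and 9 lower. With vehicle 10 of 14 were called, 1 higher and 9 lower. Over all 3453 rows tested, 65.3% were called with VLX-1005 (31.5% higher and 33.8% lower) and 66.4% with vehicle (31.7% higher and 34.8% lower), so the share of mitochondrial rows called, 78.6% with VLX-1005 and 71.4% with vehicle, was near that of the table as a whole. mt-Nd1, mt-Nd2 and mt-Ta, which reached 10 counts more often in M0 libraries, are among the 9 called lower with either treatment. These counts of calls therefore say nothing for the direction of the members as a whole.

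Directions depend on the scaling. TMM factors were 0.826 to 0.870 in M1 libraries and 1.15 to 1.20 in M0 libraries, and with library totals in place of TMM the median log2 fold change of all rows moved by -0.486 with VLX-1005 and by -0.472 with vehicle. With library totals 10 of the 14 mitochondrial rows were called with either treatment, all of them lower. Over all 3453 rows, 2547 were then called with VLX-1005 and 2544 with vehicle, in either direction. The median log2 fold change of all rows was then -0.56 with VLX-1005 and -0.57 with vehicle. These calls too say nothing for the members as a whole. The fold changes below are those with TMM, and the rows whose direction or call was different with library totals are named.

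mt-Nd6 fell to 6022, 4808, 6234 and 7268 CPM in M1 macrophages with VLX-1005, against 10859, 9384, 11817 and 10648 CPM in M0 macrophages with VLX-1005 (log2 fold change -0.81, SE 0.11, adjusted p = 6.976e-07). It fell to 5906, 4798, 5826 and 6694 CPM in M1 macrophages with vehicle, against 10879, 8735, 10831 and 10377 CPM in M0 macrophages with vehicle (-0.81, SE 0.11, adjusted p = 6.745e-07). The groups did not overlap, and the call held in all 18 alternatives for either treatment, with log2 fold changes between -1.30 and -0.71 with VLX-1005 and between -1.29 and -0.73 with vehicle.

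mt-Tp moved the other way. Its level was 899.8, 713.1, 808.6 and 970.5 CPM in M1 macrophages with VLX-1005, against 622.7, 548.8, 626.7 and 555.4 CPM in M0 macrophages with VLX-1005 (log2 fold change 0.53, SE 0.09, adjusted p = 2.325e-05). With vehicle it was 896.9, 725.7, 842.1 and 852.2 CPM in M1 macrophages, against 633.9, 515.7, 585.0 and 546.5 CPM in M0 macrophages (0.54, SE 0.09, adjusted p = 1.805e-05). The groups did not overlap. This rise rested on the scaling: with library totals the log2 fold change was 0.04 with VLX-1005 (adjusted p = 0.683) and 0.07 with vehicle (adjusted p = 0.492), and the raw counts summed to 2950 in M1 and 3085 in M0 macrophages with VLX-1005 and to 2897 in M1 and 2917 in M0 macrophages with vehicle.

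Because both rows come from the same library, their ratio does not depend on scaling. Per 1000 mt-Nd6 counts there were 149.4, 148.3, 129.7 and 133.5 mt-Tp counts in M1 macrophages with VLX-1005, against 57.3, 58.5, 53.0 and 52.2 in M0 macrophages with VLX-1005. With vehicle there were 151.9, 151.3, 144.6 and 127.3 in M1 macrophages, against 58.3, 59.0, 54.0 and 52.7 in M0 macrophages. The lowest M1 library was thus at 127.3 and the highest M0 library at 59.0. On the log2 scale the ratio differed by 1.34 with VLX-1005 and by 1.36 with vehicle (exact permutation p = 0.0286, the smallest the design allows, adjusted p = 0.0571 over the 26 ratio tests, which were chosen after the counts had been seen).

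The other 5 tested light-strand tRNA rows were called lower in M1 macrophages with both treatments. mt-Te, the glutamate tRNA gene beside mt-Nd6, fell to 27.0, 25.9, 27.1 and 44.5 CPM in M1 macrophages with VLX-1005, against 62.8, 69.0, 55.0 and 57.1 CPM in M0 macrophages with VLX-1005 (log2 fold change -0.97, SE 0.20, adjusted p = 0.000218). With vehicle mt-Te fell to 24.7, 18.2, 29.7 and 34.9 CPM in M1 macrophages, against 70.7, 59.7, 75.004 and 65.6 CPM in M0 macrophages (-1.32, SE 0.20, adjusted p = 5.861e-06). No M1 library reached the M0 libraries of its treatment.

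mt-Ta, the alanine tRNA gene, had the largest fall among light-strand rows. It was at 16.2, 12.3, 3.53 and 14.8 CPM in M1 macrophages with VLX-1005, against 45.1, 35.2, 27.1 and 51.2 CPM in M0 macrophages with VLX-1005 (log2 fold change -1.74, SE 0.33, adjusted p = 7.615e-05). With vehicle it was at 6.18, 6.06, 10.99 and 16.9 CPM in M1 macrophages, against 36.2, 32.2, 35.3 and 31.6 CPM in M0 macrophages (-1.71, SE 0.34, adjusted p = 0.000132). The groups did not overlap with either treatment.

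mt-Ts1, the serine tRNA gene that overlaps the end of mt-Co1, fell less. It had 280.5, 289.9, 299.0 and 276.0 CPM in M1 macrophages with VLX-1005, against 408.5, 292.7, 385.7 and 386.8 CPM in M0 macrophages with VLX-1005 (log2 fold change -0.36, SE 0.12, adjusted p = 0.0141). The row had, with vehicle, 279.2, 259.3, 169.3 and 263.3 CPM in M1 macrophages, against 380.8, 333.3, 404.3 and 326.2 CPM in M0 macrophages (-0.58, SE 0.13, adjusted p = 0.000383). The groups did not overlap with vehicle, and overlapped with VLX-1005 through M0 replicate 2.

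mt-Tq, the glutamine tRNA gene, had 30.2, 17.3, 23.5 and 26.2 CPM in M1 macrophages with VLX-1005, against 84.9, 55.8, 60.3 and 62.1 CPM in M0 macrophages with VLX-1005 (log2 fold change -1.43, SE 0.29, adjusted p = 0.000144). Under vehicle it had 30.9, 13.3, 39.6 and 34.9 CPM in M1 macrophages, against 69.9, 39.3, 33.8 and 67.1 CPM in M0 macrophages (-0.81, SE 0.28, adjusted p = 0.0151). The groups were apart with VLX-1005 and overlapped with vehicle, where the call was lost without M0 replicate 1 (adjusted p = 0.0645), without M0 replicate 4 (adjusted p = 0.0503) and without M1 replicate 2 (adjusted p = 0.0624).

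mt-Ty, the tyrosine tRNA gene, had 49.6, 41.9, 35.3 and 60.4 CPM in M1 macrophages with VLX-1005, against 74.6, 55.0, 76.1 and 62.1 CPM in M0 macrophages with VLX-1005 (log2 fold change -0.51, SE 0.22, adjusted p = 0.0497). With vehicle it had 53.1, 27.9, 38.5 and 37.0 CPM in M1 macrophages, against 86.8, 51.9, 47.3 and 81.3 CPM in M0 macrophages (-0.77, SE 0.23, adjusted p = 0.00536). The groups overlapped with both treatments. With VLX-1005 the call was lost in 9 of 18 alternatives, among them those without M1 replicate 1, 2 or 3 and without M0 replicate 1, 3 or 4 (adjusted p between 0.0547 and 0.157).

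Of the 7 tested heavy-strand rows, mt-Cytb, mt-Nd1 and mt-Nd2 were called lower with both treatments, mt-Rnr2 was called higher with VLX-1005, and mt-Nd5, mt-Co1 and mt-Nd4 were not called. mt-Nd1 and mt-Nd2 passed the filter on low counts mainly through M0 libraries, where they are higher. Their calls are therefore no support for a fall of heavy-strand rows. mt-Cytb, the complex III subunit, fell to 66.9, 60.5, 40.0 and 77.5 CPM in M1 macrophages with VLX-1005, against 120.4, 97.6, 94.9 and 109.1 CPM in M0 macrophages with VLX-1005 (log2 fold change -0.78, SE 0.19, adjusted p = 0.00104). With vehicle mt-Cytb fell to 63.0, 31.5, 49.5 and 47.6 CPM in M1 macrophages, against 94.8, 77.0, 92.3 and 116.1 CPM in M0 macrophages (-0.99, SE 0.20, adjusted p = 0.000138). The groups did not overlap.

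mt-Nd1, a complex I subunit, fell to 7.55, 6.17, 7.06 and 10.3 CPM in M1 macrophages with VLX-1005, against 17.7, 12.5, 19.6 and 20.1 CPM in M0 macrophages with VLX-1005 (log2 fold change -1.15, SE 0.40, adjusted p = 0.0161). With vehicle it fell to 4.94, 4.85, 2.20 and 10.6 CPM in M1 macrophages, against 26.5, 8.65, 30.0 and 16.6 CPM in M0 macrophages (-1.82, SE 0.42, adjusted p = 0.00062). The groups overlapped with vehicle, through M1 replicate 4 and M0 replicate 2. The row passed the filter on low counts through the M0 groups, so its calls depend on that selection.

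mt-Nd2, another complex I subunit, fell to 10.8, 11.1, 9.42 and 12.5 CPM in M1 macrophages with VLX-1005, against 22.9, 24.9, 22.6 and 16.8 CPM in M0 macrophages with VLX-1005 (log2 fold change -0.99, SE 0.28, adjusted p = 0.00422). The row had, with vehicle, 11.1, 10.9, 4.40 and 13.7 CPM in M1 macrophages, against 20.9, 15.7, 18.8 and 15.01 CPM in M0 macrophages (-0.80, SE 0.29, adjusted p = 0.0205). The groups did not overlap, but the call with vehicle was lost without M0 replicate 1 (-0.69, adjusted p = 0.0688), without M1 replicate 3 (-0.55, adjusted p = 0.095), with no filter on low counts (adjusted p = 0.0863) and with DESeq2 (adjusted p = 0.0548). Like mt-Nd1, the row passed the filter mainly through the M0 groups.

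mt-Nd5 had 340.9, 273.9, 626.2 and 562.2 CPM in M1 macrophages with VLX-1005, against 333.1, 533.4, 455.0 and 407.8 CPM in M0 macrophages with VLX-1005 (log2 fold change 0.06, adjusted p = 0.835). Under vehicle it had 447.2, 392.5, 501.3 and 753.9 CPM in M1 macrophages, against 260.3, 428.4, 480.8 and 428.1 CPM in M0 macrophages (0.39, SE 0.23, adjusted p = 0.132), and it was called higher with vehicle when no filter on low counts was used (0.31, adjusted p = 0.0119) or the replicate number was a block (adjusted p = 0.0476). The libraries of a group differed widely and the groups overlapped, although the mt-Nd6 row that faces mt-Nd5 fell in the same libraries. Per 1000 mt-Nd6 counts there were 56.6, 57.0, 100.5 and 77.4 mt-Nd5 counts in M1 macrophages with VLX-1005, against 30.7, 56.8, 38.5 and 38.3 in M0 macrophages with VLX-1005, and 75.7, 81.8, 86.1 and 112.6 in M1 macrophages with vehicle, against 23.9, 49.0, 44.4 and 41.2 in M0 macrophages with vehicle. The log2 ratio differed by 0.82 with VLX-1005 (exact permutation p = 0.0571, adjusted p = 0.106) and by 1.20 with vehicle (p = 0.0286, adjusted p = 0.0571).

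mt-Co1, a complex IV subunit, had 49.6, 50.6, 51.8 and 70.7 CPM in M1 macrophages with VLX-1005, against 81.2, 51.4, 78.3 and 85.6 CPM in M0 macrophages with VLX-1005 (log2 fold change -0.41, adjusted p = 0.118). With vehicle it had 70.4, 43.6, 56.1 and 61.3 CPM in M1 macrophages, against 78.7, 40.1, 92.3 and 57.7 CPM in M0 macrophages (-0.22, adjusted p = 0.415). It was called with library totals (-0.89 with VLX-1005, adjusted p = 0.00132, and -0.69 with vehicle, adjusted p = 0.00962), and with VLX-1005 also without M0 replicate 2 (-0.55, adjusted p = 0.0399) and with no filter on low counts (-0.50, adjusted p = 0.0494).

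mt-Nd4, a complex I subunit, had 52.9, 38.2, 42.4 and 49.0 CPM in M1 macrophages with VLX-1005, against 39.9, 35.2, 55.7 and 35.2 CPM in M0 macrophages with VLX-1005 (log2 fold change 0.14, adjusted p = 0.59). The row had, with vehicle, 39.5, 46.0, 38.5 and 66.6 CPM in M1 macrophages, against 41.8, 43.2, 33.0 and 52.1 CPM in M0 macrophages (0.17, adjusted p = 0.496). With library totals both values were below 0, at -0.35 with VLX-1005 and -0.30 with vehicle, and neither passed the test.

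mt-Rnr2, the large ribosomal RNA, was the only heavy-strand row called higher, and with VLX-1005 alone. It had 15.1, 7.40, 15.3 and 15.97 CPM in M1 macrophages with VLX-1005, against 7.39, 2.20, 9.04 and 4.195 CPM in M0 macrophages with VLX-1005 (log2 fold change 1.22, SE 0.41, adjusted p = 0.0118). Under vehicle it had 22.2, 8.48, 12.1 and 8.46 CPM in M1 macrophages, against 8.84, 9.43, 9.0005 and 9.48 CPM in M0 macrophages (0.46, adjusted p = 0.301). The difference between the fold changes was 0.76 (SE 0.56, unadjusted p = 0.188), so they were not shown to differ. The call with VLX-1005 was lost with no filter on low counts (adjusted p = 0.0541) and with library totals (0.74, adjusted p = 0.102).

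Set against mt-Nd6 within each library, the tested rows differed in how far they departed from it. The log2 ratio to mt-Nd6 was higher in M1 macrophages for mt-Tp, mt-Nd4 (0.98 with VLX-1005 and 0.97 with vehicle), mt-Co1 (0.43 and 0.66) and mt-Rnr2 (2.14 and 1.19), with an exact permutation p of 0.0286 and an adjusted p of 0.0571 in each. For mt-Cytb the ratio differed by 0.01 with VLX-1005 and by -0.19 with vehicle (exact permutation test, adjusted p = 0.981 and 0.409), and for mt-Nd2 by -0.11 and -0.03 (adjusted p = 0.675 and 1). For mt-Ta it differed by -1.02 with VLX-1005 (exact permutation p = 0.0857) and by -0.99 with vehicle (exact permutation p = 0.0286). None of the 26 ratio tests passed 0.05 after adjustment.

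No mitochondrial row was called for VLX-1005 against vehicle. In M1 macrophages 0 of 14 rows were called, where 0% of all 3453 rows were called, with log2 fold changes of -0.29 to 0.44. In M0 macrophages 0 of 14 were also called, again beside 0% of all rows, with log2 fold changes of -0.67 to 0.33. No mitochondrial row had an unadjusted p under 0.05 in either contrast, and over all rows 127 (M1) and 104 (M0) had one with edgeR, 95 and 74 with DESeq2, and 108 and 115 with limma-voom. The lowest edgeR p was that of mt-Ts1 in M1 macrophages (log2 fold change 0.24, SE 0.13, adjusted p = 0.998), followed by mt-Cytb in M1 macrophages (0.36, SE 0.21, adjusted p = 0.998). For mt-Nd6 the log2 fold change was 0.07 (SE 0.11) in M1 and 0.07 (SE 0.11) in M0 macrophages, and for mt-Tp it was 0.03 (SE 0.09) in M1 and 0.05 (SE 0.09) in M0 macrophages. The SE of these values was thus about 0.1 on the log2 scale, which is not a bound on the difference.

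The shares under VLX-1005 and vehicle differed by less than the spread between the libraries of a group. Part of that spread followed the replicate number. With the replicate number as a block, the mitochondrial share gave a sign-flip p of 0.125 in M0 macrophages, the smallest possible. It gave 0.375 in M1 macrophages and 0.125 for the difference between the transitions. No source says that equal numbers are pairs. The mitochondrial share averaged 0.675% ± 0.109 with VLX-1005 and 0.653% ± 0.0944 with vehicle in M1 macrophages (SD, n = 4 each, exact permutation p = 0.714), and 1.49% ± 0.122 with VLX-1005 and 1.42% ± 0.127 with vehicle in M0 macrophages (SD, n = 4 each, exact permutation p = 0.4). The light-strand share averaged 91.9% ± 1.29 with VLX-1005 and 90.9% ± 1.14 with vehicle in M1 macrophages (exact permutation p = 0.229, adjusted p = 0.49), and 94.4% ± 0.81 with VLX-1005 and 94.5% ± 0.848 with vehicle in M0 macrophages (exact permutation p = 0.857). The mt-Nd6 share of the light strand averaged 82.8% ± 1.27 with VLX-1005 and 83.04% ± 1.18 with vehicle in M1 macrophages (exact permutation p = 0.743), and 89.9% ± 0.521 with VLX-1005 and 89.8% ± 0.446 with vehicle in M0 macrophages (exact permutation p = 0.771).

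The change with polarization was also compared between the treatments. The test of the difference between the fold changes called 0 of the 14 rows, beside 0% of all rows, of which 148 had an unadjusted p under 0.05 (107 with DESeq2 and 133 with limma-voom). None of the 14 was among those 148, and the lowest edgeR p was that of mt-Tq (-0.62, SE 0.40, adjusted p = 0.9999). For mt-Nd6 the difference was 0.00203 (SE 0.15) and for mt-Tp -0.01 (SE 0.13). The corresponding differences in the shares were -0.0535 percentage points for the mitochondrial share (exact permutation p = 0.662), 1.21 percentage points for the light-strand share (p = 0.266) and -0.33 percentage points for the mt-Nd6 share (p = 0.686).

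Nuclear genes that serve the mitochondrial genome were covered thinly. Of 36 genes for mitochondrial transcription, RNA processing and DNA maintenance, 9 were tested, and with either treatment 6 were higher and 2 lower in M1 macrophages, with a median log2 fold change of 0.90 with VLX-1005 and 0.85 with vehicle. Over all rows tested, 31.5% were higher and 33.8% lower with VLX-1005, and 31.7% were higher and 34.8% lower with vehicle. All 9 rows overlap a gene on the opposite strand. Slirp, which binds and stabilizes mitochondrial mRNAs, averaged 2744 ± 66 CPM in M1 and 1410 ± 24.4 CPM in M0 macrophages with VLX-1005 (SD, n = 4 each, log2 fold change 0.96, SE 0.06, adjusted p = 7.443e-12), and 2769 ± 225 CPM in M1 and 1400 ± 111.1 CPM in M0 macrophages with vehicle (0.98, SE 0.06, adjusted p = 4.838e-12), in a row that lies opposite to Alkbh1 and Snw1. Polg, the mitochondrial DNA polymerase, with a row opposite to Fanci, fell to 2.64 ± 3.09 CPM in M1, against 16.2 ± 4.13 CPM in M0 macrophages with VLX-1005 (-2.58, adjusted p = 0.000887), and to 3.66 ± 4.99 CPM in M1, against 19.7 ± 1.70 CPM in M0 macrophages with vehicle (-2.37, adjusted p = 0.000791). Mgme1, a nuclease of mitochondrial genome maintenance, with a row opposite to Snx5, was lower as well (-3.19 with VLX-1005 and -3.52 with vehicle), but its M0 libraries varied widely (134.6 ± 130.2 CPM in the VLX-1005 group and 158.9 ± 153.8 CPM in the vehicle group).

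For the nuclear subunits of the respiratory chain, 5 of 46 complex I genes were tested and 1, Ndufa2, was higher (2.50 with VLX-1005 and 2.43 with vehicle, in a row opposite to Tmco6), while Ndufs3, of highest mean CPM over all libraries among the 5 tested, had -0.01 with VLX-1005 and -0.30 with vehicle (adjusted p = 0.956 and 0.197). Of 18 complex IV genes 1 was tested, and Cox6c fell with both treatments (-1.14 with VLX-1005 and -0.82 with vehicle, opposite to Vps13b). Of 16 ATP synthase genes 3 were tested and 1, Atp5f1, fell (-1.05 with VLX-1005 and -0.83 with vehicle, opposite to Wdr77 and Gm42890). None of the 4 complex II and 9 complex III genes passed the filter. The nuclear lists therefore gave no broad picture of the respiratory chain beside the mitochondrial rows, and over all rows tested the median log2 fold changes were -0.08 with VLX-1005 and -0.10 with vehicle.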

How the data were processed

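Strand-specific libraries of polyA RNA (TruSeq, Illumina NovaSeq) were made by the authors, who used HISAT2 (mm10) in Galaxy for alignment and HTSeq for counts per gene. The deposited table holds raw counts per Ensembl gene ID for 16 libraries. Versions, annotation release and the strand setting of the counting: not given in the sources used here. Trimmomatic, FastQC and DESeq2 also stand in the processing notes.

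IDs were matched without their version to GENCODE M21 (48058 of 48440 rows; the other 382 held 0.47% of the counts). All rows were fitted together in edgeR 4.0.16 (R 4.3.3): filterByExpr by group, TMM, group as factor, quasi-likelihood test, Benjamini-Hochberg adjustment over the 3453 rows tested. Single values per library were compared by two-sided exact permutation tests (scipy 1.17.1) over 70 labellings (4900 for the difference between treatments), adjusted over 15 tests. Ratios to mt-Nd6 (pseudocount 0.5) were added after the counts had been seen, as was scaling by library totals. Nuclear copies were sought with blastn 2.17.0 in the GENCODE transcripts. The edgeR fit was tested on simulated counts. Alternatives were no filter, a mean of at least 50 counts, DESeq2 size factors, upper quartile scaling, library sizes without mitochondrial rows, DESeq2 1.42.0, limma-voom (limma 3.58.1), fits with just the groups being compared, a block for the replicate number, and leaving out each library.

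Per-library values were given for rows with a mean of at least 50 counts or a call in any contrast. They were also given for mt-Nd4, which had a mean of 47.6 counts and no call. From each nuclear list, up to 2 called genes of largest change and the tested gene of highest CPM were named. Members and lists were chosen with earlier results of these data known. No libraries were left out of the main comparisons. A marker gene is not reported here.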

Additional observations from a re-analysis of the deposited data

Results flagged for a closer look

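Of 68 groups of 4 libraries checked for a library far from the other 3, 5 had one, where chance gives about 1 in 20. The light-strand share of mitochondrial counts was 89.16% in M1 vehicle replicate 4, below the others of its group, and 95.76% in M0 vehicle replicate 1, above the others of its group. mt-Te stood at 44.47 CPM and mt-Co1 at 70.7 CPM in M1 VLX-1005 replicate 4, both above the other libraries of that group. mt-Rnr2 stood at 7.402 CPM in M1 VLX-1005 replicate 2, below the others.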

How the results depend on the processing

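Most results kept their direction and their side of the threshold. Leaving out each library in turn gave 10 to 12 called mitochondrial rows with VLX-1005, 8 to 10 with vehicle, and 0 for VLX-1005 against vehicle in M1, in M0 and for the difference between treatments. In the main fit, 65.3% of all rows were called between M1 and M0 with VLX-1005 and 66.4% with vehicle. With a mean of at least 50 counts, 9 rows could be tested and 7 were called with VLX-1005, beside 1262 of all 1678 rows. With a replicate block (sign flips over 4 pairs, where the smallest p is 0.125) no share could pass, and the differences, M1 minus M0, stayed -0.8152 and -0.7616 percentage points for the mitochondrial share, -2.435 and -3.647 for the light-strand share and -7.099 and -6.769 for the mt-Nd6 share, with VLX-1005 and with vehicle in each pair of values. Same-numbered libraries correlated over 0.1 in 2 of 24 pairs, so they were not treated as paired, although 9 of 16 libraries correlated best with their own number, a hint from the data and not the design. In edgeR mt-Nd5 was called with vehicle under the block (adjusted p = 0.0476) and with no filter (0.31, adjusted p = 0.0119). The light-strand share differed by 3.297 (VLX-1005) and -1.007 (vehicle) without mt-Nd6 and by -0.1659 and -0.2628 per kb, and per kb the M0 difference between VLX-1005 and vehicle was 0.003334.

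The M1 to M0 difference in light-strand share with VLX-1005 ranged from -2.819 to -1.894 when a library was left out, and its p was over 0.05 without M0 replicate 1, 3 or 4 or M1 replicate 3 or 4. Differences with no call changed sign in some of these runs: the mitochondrial share for VLX-1005 against vehicle in M1 (-0.02409 to 0.06392) and between treatments (-0.1051 to 0.008687), the light-strand share in M0 (-0.3736 to 0.2917), and the mt-Nd6 share in M1 (-0.5745 to 0.273), in M0 (-0.09051 to 0.3291) and between treatments (-0.6874 to 0.1601). So did the log2 fold changes of mt-Nd4 with vehicle (-0.03841 to 0.2798), of mt-Nd5 with VLX-1005 (-0.134 to 0.2379), and, for VLX-1005 against vehicle, of mt-Nd6 (-0.02661 to 0.1666 in M1, -0.002067 to 0.1216 in M0), mt-Tp (-0.03523 to 0.1088 in M1) and mt-Ts1 (-0.02558 to 0.1235 in M0).

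With library totals, which were added after the data had been seen, uncalled rows turned to -0.01029 (mt-Rnr2, vehicle), -0.3492 and -0.2988 (mt-Nd4, VLX-1005 and vehicle), and -0.4289 and -0.07855 (mt-Nd5, VLX-1005 and vehicle), and mt-Nd5 with VLX-1005 was -0.02964 with no filter and -0.01234 among rows averaging 50 counts or more. The fewer rows and libraries in a fit follow from these settings; the cause of the other changes was not tested. With about 1078304 counts per library, 23 of 37 rows were too low to test.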

Other observations

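Libraries that share a replicate number showed like positions within their groups, a pattern seen after the values were known and not tested. Replicate 2 had the lowest mitochondrial share in each of the 4 groups (0.549% in M1 VLX-1005, 0.545% in M1 vehicle, 1.34% in M0 VLX-1005 and 1.23% in M0 vehicle), and replicate 1 had the highest light-strand share in each (93.1%, 91.6%, 95.1% and 95.8%). No label says what a replicate number stands for.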
